A study of Mus musculus with 4 samples.

Results

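Transglutaminases and peptidylarginine deiminases are the enzymes that finish the proteins of cornified skin cells. The genes described here are the transglutaminases *Tgm1*, *Tgm2*, *Tgm3* and *Tgm5* and the deiminases *Padi1*, *Padi2*, *Padi3* and *Padi4*, 8 of the 32286 features in the count tables. They were chosen by family membership and by name, and the question was which of them serve the hair follicle (HF) and which the epidermis. All 8 were found in the count tables by their symbols.

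A transglutaminase joins glutamine and lysine residues of neighboring proteins into a covalent bond, which makes the cornified envelope of epidermal cells insoluble and hardens the sheath and shaft of the hair. A deiminase turns arginine residues into citrulline, which removes a positive charge and lets filament-binding proteins such as trichohyalin and filaggrin unfold or be broken down. In hair, *Padi3*, *Tgm3* and trichohyalin act together, and mutations of any of their human counterparts cause uncombable hair. In the epidermis, *Tgm1* is the main membrane-bound cross-linker, and its loss causes ichthyosis, whereas the loss of *Tgm5* causes peeling of the outermost layers.

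The data were spatial transcriptomes of dorsal skin from the Visium assay, in which a frozen section lies on a grid of barcoded spots, each wider than a cell, that capture its RNA. The skin came from 3 mice of the genotype *Krox20-CreERT; R26-tdTomato*, all at P38 and all given 4-hydroxytamoxifen at P2, so every value carries the Cre knock-in, the reporter and the drug, and no untreated or wild-type skin was compared. Each of the 4 slices held 1 section of each mouse, and the labels do not say which spots belong to which mouse. The slices are technical replicates, and SDs and p-values over them do not cover differences between mice. The authors set aside a distorted section that the sources do not tie to particular spots, so all spots were used.

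Spots with at least 250 detected genes were kept, which left 6411 of 6420. Slices held between 19393026 and 26910422 unique molecular identifiers (UMIs), each counting 1 captured RNA molecule, and slice 1 was the deepest, with a median spot of 14627 UMIs where the other slices had 11662 to 11989. Spots were placed in 16 compartments by lists of marker genes that hold none of the 8 enzymes, as 5132 assigned and 1279 unassigned spots. The compartments compared here are the epidermis (519 spots), the upper follicle (232), the inner root sheath (IRS, 456), the early shaft (159), the late shaft (757) and skeletal muscle (857). Names stand for the list with the highest score, not for pure cells. The 10 genes that led the epidermis by fold held 6 of its markers, such as *Lor*, *Krt77* and *Krt10*. The IRS was less sharply set apart, since its 10 leading genes held *Krt25* of its own list and *Krt32* of the early shaft list, and 104 spots with the IRS as highest list lay within 0.1 of the score cut of 1. The late shaft was led by keratin-associated protein genes such as *Krtap19-2* and *Krtap4-8*. The outer root sheath and companion layer (110 spots) was weakly marked and is given as a level only. Barcodes repeat between slices because every capture area carries one set, and 750 of the 2485 distinct barcodes occurred in all 4 slices.

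*Padi3*, the deiminase of the hair, peaked in the lower follicle. Levels are given as CPM, in which the UMIs counted for each gene were divided by the total over the spots of a compartment in a slice, and are compared between compartments of a gene, not between genes. In IRS spots, *Padi3* was at 1679, 1720, 1898 and 1676 CPM in slices 1 to 4. In epidermis spots, it was at 373, 263, 401 and 303 CPM in the same order. No epidermal value came near an IRS value. Late shaft spots followed at 1245 ± 51.3 CPM (SD, n = 4) and early shaft spots at 1160 ± 122 CPM. In both, every slice lay below every IRS slice. The lowest mean was that of the upper follicle, 282 ± 10.6 CPM, so that the ratio from the highest to the lowest compartment was 6.18. *Padi3* alone gave 65144 UMIs over all spots, the most of the 8 genes.

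*Padi1*, a deiminase known from both epidermis and follicle, was highest in the late shaft. It reached 260 ± 34.7 CPM in the late shaft and 202 ± 33.5 CPM in the IRS, with slices at 213, 259, 296 and 269 CPM and at 160, 209, 241 and 197 CPM. Each slice was higher in the late shaft, although the ranges overlapped. The outer root sheath and companion layer came next at 144 ± 53.2 CPM and the early shaft had 109 ± 21.4 CPM. Epidermis spots held 44.9 ± 11.3 CPM and the proliferating matrix, in which shaft and sheath cells arise, held the lowest level of 28.8 ± 4.82 CPM. In 4 of 4 slices the IRS held more *Padi1* and more *Padi3* than the epidermis did.

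*Padi4*, known from granulocytes, where it acts on histones, was sparse, with 920 UMIs in all. It had 20.8 ± 9.36 CPM in the early shaft, 20.7 ± 1.79 CPM in the IRS and 18.3 ± 3.95 CPM in the late shaft, and these do not differ beyond their spread. Epidermis spots had 5.32, 9.10, 2.85 and 8.80 CPM, all below the 18.1 to 21.8 CPM of the IRS slices. In spots led by immune genes such as *H2-Eb1* and *Cd74*, it was at 7.62 ± 3.44 CPM from 16 UMIs, below all 4 IRS slices. No list of granulocyte markers was used, and a granulocyte source was not tested. *Padi2*, a deiminase known from muscle and nerve, had 163 UMIs in all and followed none of the other deiminases. Skeletal muscle slices held 6.85, 5.69, 8.29 and 5.39 CPM, higher than any slice of any other compartment. Of the 64 sums of a slice and compartment, 19 held no *Padi2* UMI, and a count of 0 allowed up to between 1.14 and 14.9 CPM there (3 counts). These limits and the intervals below cover counting and slice spread, not differences between animals.

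*Tgm3*, the soluble transglutaminase of cornified cells and hair, was a shaft and sheath gene. Late shaft slices held 296, 236, 231 and 236 CPM, early shaft slices 224, 191, 302 and 248 CPM, and IRS slices 200, 174, 192 and 189 CPM. The shaft compartments overlapped each other, and the late shaft did not overlap the IRS. Which shaft compartment had the higher mean depended on the slices, since it was the early shaft without slice 1 or without slice 2. Epidermis spots were at 89.3, 45.5, 47.5 and 48.9 CPM, all well below the IRS, with slice 1 apart from the others. Its lowest mean was in the sebaceous gland, 46.2 ± 19.7 CPM.

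*Tgm1* was the gene with the flattest profile across the 16 compartments, with a ratio of 4.14 between the highest and the lowest. It was at 113, 123, 145 and 134 CPM in IRS slices, 83.4, 94.0, 93.0 and 103 CPM in epidermis slices and 56.4, 56.5, 60.8 and 46.5 CPM in upper follicle slices. The epidermis stood between the 2 follicle compartments without overlap with either. Early shaft (108 ± 26.0 CPM) and late shaft (92.0 ± 11.3 CPM) overlapped the epidermis. In the order of its 16 means, all 15 neighboring pairs overlapped between slices. The same held for *Padi1*, and the other genes had 13 or 14 overlapping pairs.

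*Tgm5* was highest in compartments of the upper skin, though not in epithelium alone. The sebaceous gland held 24.5, 26.1, 29.6 and 27.6 CPM, and the upper follicle 19.2 ± 5.22 CPM, with overlap between slices of the upper follicle and the epidermis (15.2 ± 5.28 CPM). Smooth muscle spots held 16.55 ± 8.34 CPM and fibroblast spots 11.95 ± 10.1 CPM, and slices of both overlapped those of the epidermis. IRS slices held 3.78, 5.14, 5.86 and 4.35 CPM, below every epidermis slice. *Tgm5* was a rare RNA with 541 UMIs, and skeletal muscle held only 1.89 ± 0.565 CPM. *Tgm2*, the widely expressed tissue transglutaminase of vessel and stromal cells, was at 66.1 ± 11.9 CPM in skeletal muscle, 51.4 ± 5.01 CPM in endothelium spots, 41.0 ± 23.7 CPM in Schwann cell spots and 36.1 ± 5.43 CPM in smooth muscle spots. Slices of neighbors in this order overlapped, and with a score cut of 1.5 the endothelium was highest. Epidermis spots held 14.8 ± 2.50 CPM and IRS spots 8.02 ± 1.90 CPM, and the early shaft was lowest at 4.14 ± 2.27 CPM.

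**Figure D1:**
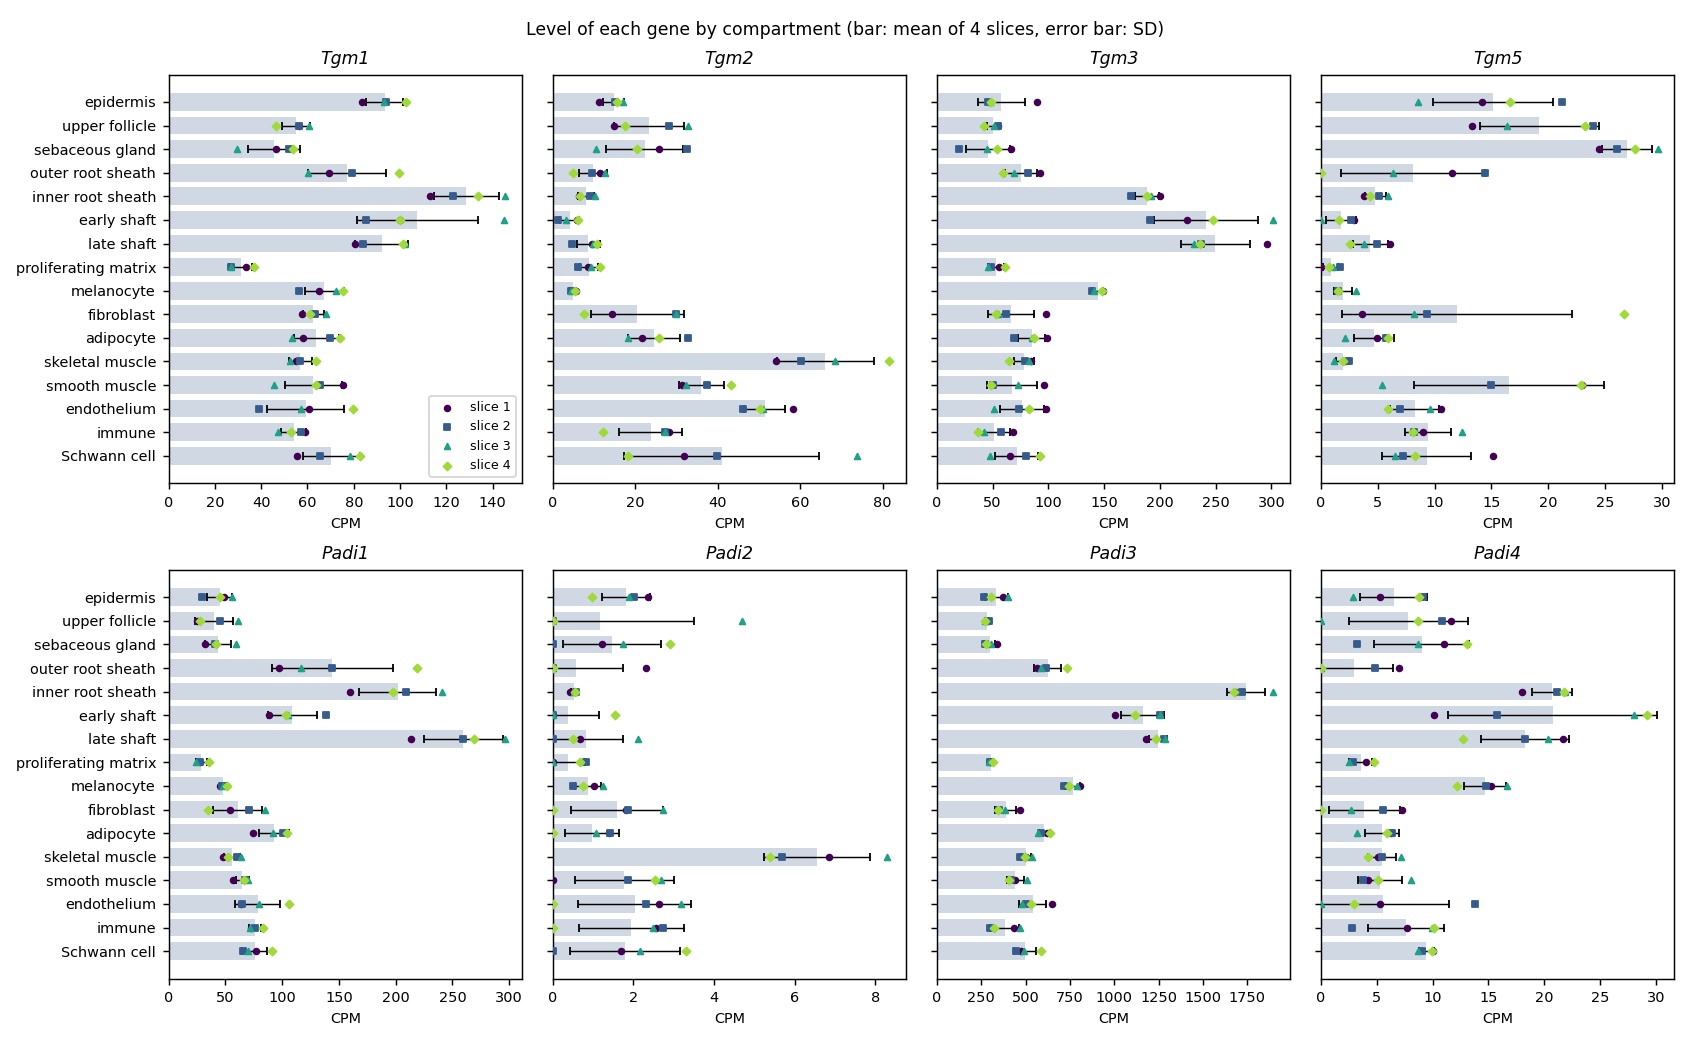
Level of each of the 8 genes in CPM (horizontal axis, linear, a scale for each gene) in 16 compartments (vertical axis); bars are means of 4 slices, error bars SDs and points the slices. *Padi3* is highest in the inner root sheath (1743 CPM), *Padi1* and *Tgm3* in the late shaft (260 and 250 CPM), *Tgm5* in the sebaceous gland (27.0 CPM) and *Tgm2* and *Padi2* in skeletal muscle (66.1 and 6.56 CPM).

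The genes of sheath and shaft had their highest levels some way below the epidermis. Distance was counted in steps of the spot grid from the nearest epidermis spot, over all spots. *Padi3* was at 335 ± 63.2 CPM at 0 steps, reached 1218 CPM at 5 steps and was back at 405 CPM at 8 steps. *Tgm3* had its highest mean at the same 5 steps (173 CPM), and *Padi1* at 4 steps (224 CPM), closer to the surface. *Tgm1* had a zone at the surface and one deep in the skin, with 93.3 CPM at 0 steps, 50.9 CPM at 1 step and 92.1 CPM at 5 steps. *Tgm5* fell from 20.9 CPM at 1 step to 0.733 CPM at 9 steps. *Tgm2* ran the other way from the sheath genes, with its lowest mean of 9.48 CPM at 5 steps and 50.4 CPM at 9 steps. Skeletal muscle spots lay at a median of 7 steps.

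**Figure D2:**
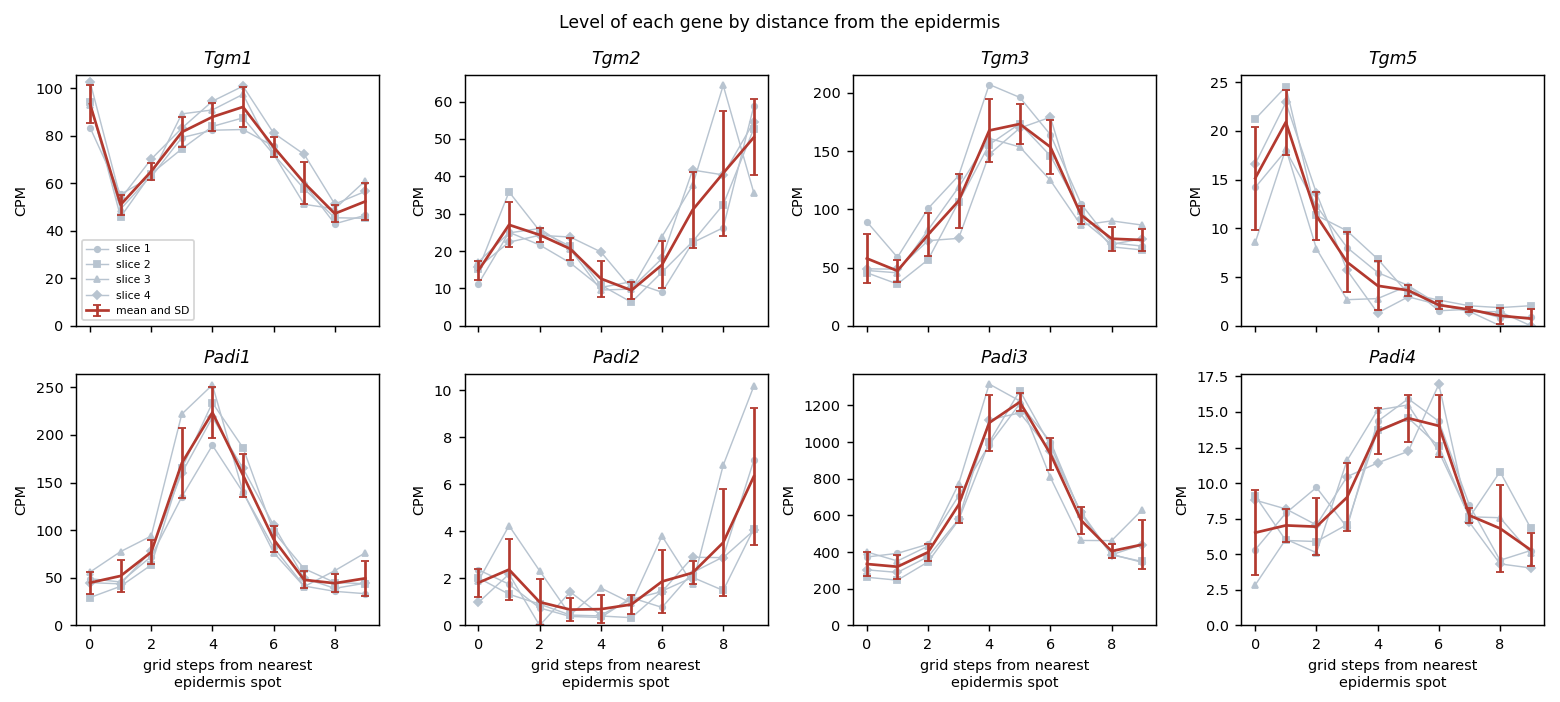
Level of each gene in CPM (vertical axis) against grid steps from the nearest epidermis spot (horizontal axis); grey lines are the 4 slices and the red line their mean with SD. *Padi3*, *Tgm3* and *Padi4* peak at 5 steps and *Padi1* at 4, *Tgm1* is high at 0 and at 5 steps, *Tgm5* falls after 1 step and *Tgm2* and *Padi2* are highest at 9.

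**Figure D3:**
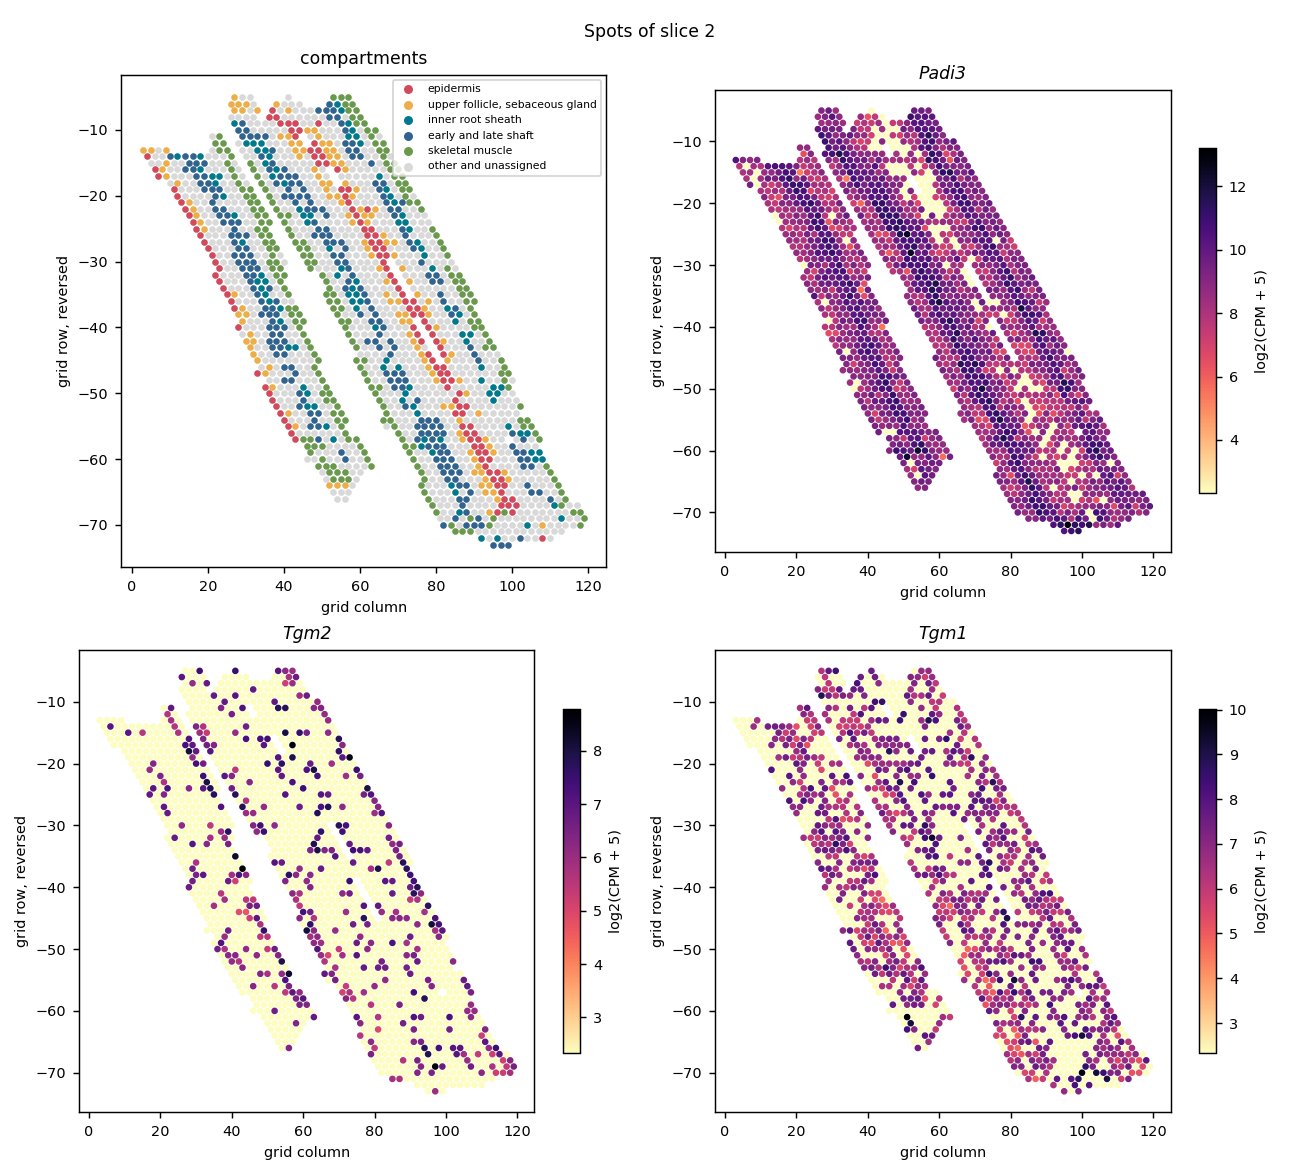
Spots of slice 2 by grid column and grid row (axes without units): the compartments compared here, and log2(CPM + 5) of *Padi3*, *Tgm2* and *Tgm1* per spot (color). *Padi3* follows the bands of inner root sheath and shaft spots, *Tgm2* lies mostly along the muscle, and *Tgm1* is spread over epidermis and lower follicle.

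RNA that spreads between spots can put UMIs of a strong gene where it is not made, and levels were therefore set beside those of IRS genes. The IRS keratin genes of the marker list, summed, were at 51320 CPM in IRS spots and were still at 35.5% ± 0.973 of that level in skeletal muscle and at 19.1% ± 2.99 in epidermis spots. IRS spots were picked by these same keratins, which can raise their IRS level and so lower their percent elsewhere. The enzymes were in no marker list, so the keratins are not an even yardstick for them. *Tchh*, which codes for trichohyalin and is a substrate of *Padi3* and *Tgm3*, was in no marker list either. It was at 33.1% ± 2.54 in muscle and 21.7% ± 3.29 in epidermis. *Padi3* was at 28.8% ± 1.19 of its IRS level in muscle and 19.2% ± 3.13 in epidermis, and *Padi1* at 28.0% ± 1.94 and 22.7% ± 6.85. In epidermis the slices of both genes overlapped those of the keratins and *Tchh*, and in muscle they lay below all of them. *Tgm3* had 41.3% ± 4.89 in muscle and 30.4% ± 9.58 in epidermis. Its epidermal level was 44.7% in slice 1 and 24.7% to 26.1% in the others, beside 21.7% ± 3.29 for *Tchh*. In epidermis each of its slices lay above every slice of the keratins. *Padi4* had 26.5% ± 5.58 and 31.5% ± 13.7. *Tgm1* stood apart at 72.8% ± 6.03 of its IRS level in epidermis, against 44.6% ± 5.79 in muscle. *Tgm5* was at 329% ± 123 in epidermis and 41.5% ± 15.8 in muscle. In muscle spots 1 step from IRS or shaft, *Padi3* was at 748 ± 61.4 CPM, and at 2 and 3 steps it was at 464 ± 46.5 and 451 ± 47.6 CPM. The summed keratins ran alike, from 25510 to 17250 and 16290 CPM.

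**Figure D4:**
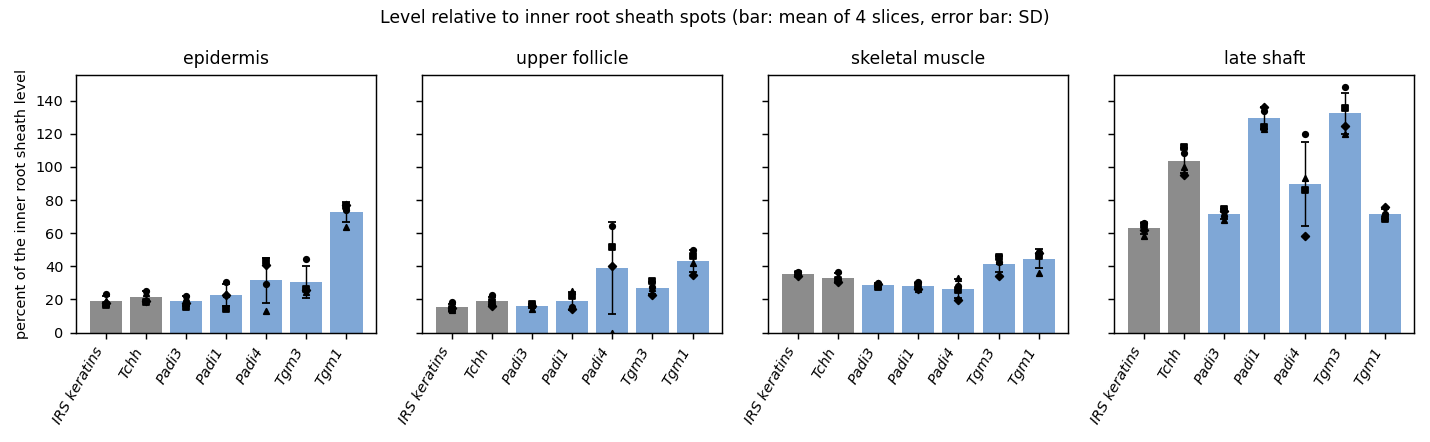
Level of IRS keratins, *Tchh* (both grey) and 5 enzyme genes (blue) in 4 compartments, as percent of the level in inner root sheath spots of the same slice; bars are means of 4 slices, error bars SDs and points the slices. In epidermis *Padi3* (19.2%) and *Padi1* (22.7%) sit with the keratins (19.1%) and *Tchh* (21.7%), and *Tgm1* (72.8%) is well above them. The keratins are the markers that picked the inner root sheath spots, which can lower their percent elsewhere.

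The share of spots with at least 1 UMI was compared after spots were thinned to 5500 UMIs each, which removes unequal depth (medians 8560 UMIs in epidermis, 16330.5 in IRS and 14349 in muscle). After thinning, *Padi3* was found in 78.8% ± 9.84 of epidermis spots and in 91.3% ± 3.16 of muscle spots (86.3% and 98.3% before). *Padi1* was found in 20.7% ± 5.70 and 28.2% ± 4.29 (31.4% and 53.2% before), and *Tgm3* in 27.2% ± 10.6 and 34.5% ± 1.07 (37.0% and 64.7% before). For these 3 genes the mean epidermal share was below that of muscle, a tissue not known to make them, so that detection in epidermis spots did not exceed this background. Muscle spots lay nearer to IRS and shaft than epidermis spots did, and epidermal expression of the 3 genes was not tested by these shares. *Tgm1* was found in 41.5% ± 4.65 of epidermis spots against 26.7% ± 1.58 of muscle spots (53.4% and 54.0% before), and *Tgm5* in 8.07% ± 3.17 against 0.860% ± 0.467 (12.4% and 2.76% before). Both exceeded the muscle share. Thinning left out 89 of 519 epidermis spots, 17 of 456 IRS spots and 38 of 857 muscle spots.

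UMIs summed per slice and compartment were compared with edgeR's quasi-likelihood test, with Benjamini-Hochberg adjustment over 10178 genes. A gene counted as called at an adjusted p under 0.05. Of the 8 genes, 7 passed the low-count filter, and *Padi2* did not. Differences are log2 fold changes with their standard errors (SE). In bulk sums of spots, fewer cells of a type and less RNA per cell cannot be told apart.

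Against the IRS, the epidermis was lower in 5 of the 7 genes and higher in 2, where 51.2% of all genes were called, 24.6% as lower and 26.6% as higher. *Padi3* was lower by a log2 fold change of -2.45 (SE 0.12, edgeR adjusted p = 4.6e-28), *Padi1* by -2.22 (SE 0.15, adjusted p = 6.9e-21), *Padi4* by -1.76 (SE 0.29, adjusted p = 5.6e-07) and *Tgm3* by -1.73 (SE 0.17, adjusted p = 9.2e-14). These 4 passed a log2 fold change of 1 as well, as 6.97% of all genes did in that direction. *Tgm1* differed less, by -0.54 (SE 0.11, adjusted p = 2.8e-05). *Tgm5* was higher in the epidermis by 1.57 (SE 0.31, adjusted p = 1.9e-05), and *Tgm2* by 0.77 (SE 0.31, adjusted p = 0.029). The call of *Tgm2* was lost without slice 1, 2 or 4 (adjusted p = 0.063, 0.053 and 0.10 in edgeR). The median over the 7 genes was -1.73, beside -0.02 over all genes.

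Against the late shaft, 6 of the 7 genes were called, where 44.4% of all genes were. *Padi1* had the widest gap of them with -2.79 (SE 0.15, edgeR adjusted p = 3.0e-26), followed by *Tgm3* with -2.35 (SE 0.17), *Padi3* with -2.18 (SE 0.12) and *Padi4* with -1.83 (SE 0.29), and each of these was lower in epidermis in 4 of 4 slices. *Tgm5* was higher in the epidermis by 1.41 (SE 0.30, adjusted p = 5.9e-05). *Tgm1* was called at -0.27 (SE 0.11, adjusted p = 0.045), but its CPM was higher in epidermis in 3 of 4 slices, and with scaling by library size alone the value was 0.02, with the median of all genes shifted to 0.29. Its direction between epidermis and late shaft is thus not settled, and the call was lost without any 1 of the 4 slices. *Tgm2* did not pass, at 0.46 (SE 0.29, 95% interval -0.11 to 1.02).

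Within the lower follicle, some genes differed between the groups of spots named IRS, early shaft and late shaft. These spots mix cells, so single layers were not resolved. Between IRS and early shaft, 2 of 7 genes were called, where 6.2% of all genes were. *Padi1* was higher in the IRS by 0.96 (SE 0.14, edgeR adjusted p = 2.2e-06) and *Padi3* by 0.68 (SE 0.11, adjusted p = 1.7e-05), each in 4 of 4 slices without overlap. *Tgm1* was at 0.36 (SE 0.12, adjusted p = 0.052), and at an adjusted p of 0.021 with the slice as a block. *Tgm3* (interval -0.55 to 0.06) and *Padi4* (interval -0.40 to 0.63) did not pass. Between IRS and late shaft, 3 of 7 genes were called, where 25.4% of all genes were. *Tgm3* and *Padi1* were lower in the IRS by -0.63 (SE 0.14, adjusted p = 4.2e-04) and -0.57 (SE 0.12, adjusted p = 1.1e-04). *Tgm1* was higher by 0.28 (SE 0.10, adjusted p = 0.037), a call that was lost without any 1 slice (adjusted p between 0.056 and 0.11). *Padi3* was at 0.27 (SE 0.11, adjusted p = 0.064), and at an adjusted p of 0.0031 with the slice as a block. With clusters in place of marker scores, the difference of *Tgm3* turned to 0.74, so that its order between IRS and late shaft depends on how spots are assigned.

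Between epidermis and upper follicle, *Tgm1* alone was called of the 7 genes, where 14.2% of all genes were. It was higher in the epidermis by 0.76 (SE 0.15, edgeR adjusted p = 9.1e-05), in 4 of 4 slices and without overlap, and the call was kept under all 14 alternatives, at values from 0.33 to 0.95. *Tgm5* had -0.36 (SE 0.31, interval -0.98 to 0.25) and *Padi3* 0.24 (SE 0.12, interval 0.00 to 0.49). Intervals that include 0 do not show that these genes were level.

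Skeletal muscle served as the tissue without cornification. Here 5 of 7 genes were called, where 55.6% of all genes were. *Tgm5* was higher in the epidermis by 2.88 (SE 0.33, edgeR adjusted p = 1.4e-11) and *Tgm1* by 0.66 (SE 0.11, adjusted p = 9.6e-07). *Tgm2* was lower by -2.22 (SE 0.21, adjusted p = 4.4e-15), *Padi3* by -0.62 (SE 0.12, adjusted p = 6.1e-06) and *Tgm3* by -0.42 (SE 0.18, adjusted p = 0.039). The last call was lost without slice 2, 3 or 4 (adjusted p = 0.22, 0.18 and 0.078). *Padi1* was at -0.35 (SE 0.16, adjusted p = 0.058), and at an adjusted p of 0.037 with the slice as a block. Muscle spots lay a median of 2 steps from the nearest IRS or shaft spot and epidermis spots a median of 4 steps, and the part of RNA spread in these differences was not tested. In spots at least 3 steps away, *Padi3* was lower in epidermis than in muscle by -0.58 (edgeR adjusted p = 3.6e-05). This distance did not make IRS RNA alike in the 2 tissues. The summed IRS keratins were at 16290 CPM in muscle at 3 steps and at 9280 CPM in epidermis at 3 to 4 steps. The part of RNA spread was thus not tested here either.

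**Figure D5:**
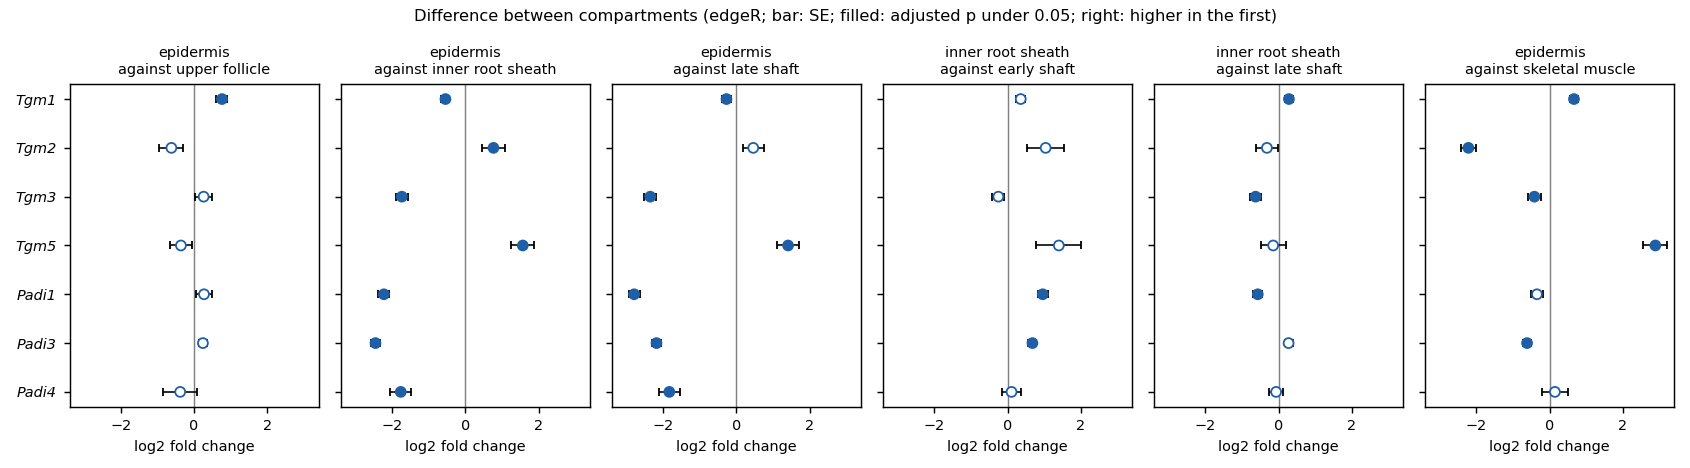
Log2 fold change (horizontal axis) of the 7 tested genes in 6 comparisons of compartments from edgeR; bars are SEs, filled points have an adjusted p under 0.05, and points to the right are higher in the first compartment. The genes *Padi1*, *Padi3*, *Padi4* and *Tgm3* lie at -1.73 or lower between epidermis and inner root sheath, and *Tgm1* alone is called between epidermis and upper follicle (0.76).

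Other genes of these families outside the 8, listed together with the factor XIII subunit gene *F13b*, were mostly near 0. Of *Tgm4*, *Tgm6*, *Tgm7*, *F13a1*, *F13b*, *Epb42* and *Padi6*, only *Tgm6* and *F13a1* passed the filter, and the other 5 had between 0 and 13 UMIs over all spots. *Tgm6* had 105 CPM in the late shaft, 58.6 CPM in the IRS and 18.8 CPM in epidermis. Between IRS and early shaft it was not called, at a log2 fold change of 0.01 (SE 0.16, edgeR adjusted p = 0.99). It was lower in the epidermis than in the IRS by -1.68 (SE 0.18, edgeR adjusted p = 3.0e-12) and lower in the IRS than in the late shaft by -1.05 (SE 0.12, adjusted p = 2.3e-10). *F13a1*, the clotting transglutaminase that macrophages carry, was highest in immune spots at 40.1 CPM and higher in epidermis than in the IRS by 1.72 (SE 0.24, adjusted p = 7.1e-09).

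Substrates of the enzymes split between the tissues. Of 21 listed substrates 19 were tested, and between epidermis and IRS 8 were higher in the epidermis, 9 were lower and 2 did not pass. Of all genes, 26.6% were higher in the epidermis and 24.6% lower. The median was -0.37, beside -0.02 over all genes. Filaggrin (*Flg*, 7.47, SE 0.25) and the late cornified envelope genes *Lce1c* (6.73, SE 0.24), *Lce1a1* (6.71, SE 0.25) and *Lce1m* (6.49, SE 0.25) had the largest log2 fold changes toward the epidermis, at edgeR adjusted p from 5.8e-37 to 2.7e-34. On the follicle side were *S100a3* (-2.61, SE 0.19, adjusted p = 4.2e-19), a calcium-binding protein of the hair cuticle that is deiminated by *Padi3*, and *Tchh* (-2.28, SE 0.15, adjusted p = 2.8e-21). Other listed substrates were also lower in epidermis, such as *Sprr2h* (-1.80, SE 0.18), *Sprr1b* (-1.39, SE 0.19) and *Ivl* (-0.67, SE 0.15). In this comparison *Padi3* and *Tgm3* thus ran with *S100a3* and *Tchh* in direction, and *Tgm5* with *Flg* and the *Lce1* genes. Against the upper follicle *Flg* was higher in epidermis by 2.63 (SE 0.19), whereas *Tgm5* was at -0.36 and was not called. The epidermis spots were picked by markers of the same cornified cells, so these folds are not independent of how the spots were chosen. Against the late shaft 7 substrates were higher in epidermis and 11 lower, where 44.4% of all genes were called in either direction. Between IRS and late shaft 9 were lower in the IRS and 1 higher, where 25.4% of all genes were called in either direction. The trichohyalin-like *Tchhl1* was lower in the IRS than in the late shaft by -1.96 (SE 0.17, adjusted p = 1.2e-15). Between epidermis and upper follicle, where *Tgm1* was called, 11 substrates were higher in the epidermis and 2 lower. Of all genes, 14.2% were called there in either direction. Among the higher ones were *Lce1m* at 3.62 (SE 0.22) and *Hrnr*, which codes for hornerin, at 3.43 (SE 0.25). The lower ones were *Sprr1a* (-1.74, SE 0.20), a small proline-rich envelope protein, and *Rptn* (-1.68, SE 0.30), which codes for repetin.

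Most proteases and inhibitors that act around these enzymes were higher in epidermis than in the IRS. Of 12 listed genes 11 were tested, and 9 were higher in epidermis while 2 did not pass, where 26.6% of all genes were higher. The median was 1.59, beside -0.02 over all genes. Against the upper follicle, 3 were higher in epidermis, 4 were lower and 4 did not pass, where 14.2% of all genes were called in either direction. The median there was -0.25, beside 0.04 over all genes. *Cst6* codes for cystatin M/E, an inhibitor of the cathepsins that can activate transglutaminase 3. Against the IRS it was higher in epidermis by 4.30 (SE 0.24, edgeR adjusted p = 1.3e-25). *Casp14*, a caspase of filaggrin breakdown, was higher by 4.10 (SE 0.24), *Klk5* by 3.28 (SE 0.16) and *Spink5*, which codes for an inhibitor of *Klk5*, by 3.12 (SE 0.17). *Cst6* was still higher in the upper follicle, by a difference of -1.78 (SE 0.21, adjusted p = 2.8e-10) of epidermis against upper follicle.

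Over the 64 sums of a slice and compartment, the profiles of the 8 genes were compared by Pearson's r of log2(CPM + 5), as a description. The sums share slices, depth and cells that occur in many compartments. *Tgm3* and *Padi3* had the highest r of the 28 pairs (0.90), followed by *Padi1* and *Padi3* (0.81) and *Tgm1* and *Padi3* (0.70). *Tgm3* and *Padi1* had 0.64. *Tgm5* had an r of -0.51 with both *Tgm3* and *Padi3* and of -0.27 with *Padi1*. *Tgm2* had -0.51 with *Tgm3* as well, and 0.61 with *Padi2*. Among 10480 genes, those most like *Padi3* were *Krt27* (0.96), an IRS keratin that is itself a marker of the compartment, *Crym* (0.95) and *S100a3* (0.95). For *Tgm3* they were *Krtap11-1* (0.93), *S100a3* (0.93) and *Adh6b* (0.91), and for *Padi1* *Lrrc15* (0.92), *Prr9* (0.92) and *Pgm2* (0.92). *Tgm1* was most like the junction and envelope genes *Pkp3* (0.82) and *Evpl* (0.82) and like *Cast* (0.81), and *Tgm5* like *Cidea* (0.86), a sebaceous marker here, *Serpina3j* (0.86) and *Krt15* (0.85). *Tgm2* was most like *Tpm2*, *Fxyd1* and *Serpine2* (0.83 each), and *Padi4* like *Fam83c* (0.73), *Adh6b* (0.71) and *Hsd17b14* (0.70).

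The genes that moved together are partly neighbors in the genome. In GENCODE M21 on GRCm38, *Padi4* (chr4:140745865-140774236), *Padi3* (chr4:140785365-140810648) and *Padi1* (chr4:140812983-140845778) lie in a row on the minus strand, and *Padi2* (chr4:140906344-140952586) follows on the plus strand, all within 206722 bases. *Padi3* and *Padi1* are 2334 bases apart and shared the lower follicle, whereas *Padi2*, 60565 bases further on, was highest in muscle. *Tgm3* (chr2:130012349-130050399) and *Tgm6* (chr2:130112416-130154232) lie 62016 bases apart on the plus strand. *Tgm5* (chr2:121046111-121085841), *Tgm2* (chr2:158116402-158146436) and *Tgm1* (chr14:55700009-55713926) are on the minus strand elsewhere.

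The sequences just upstream of the start are shown for *Padi3*, *Padi1* and *Tgm3*, 3 of the genes that were lower in epidermis than in IRS and late shaft. *Tgm5*, which was higher in epidermis than in both, is shown beside these genes. The sequences are the 250 bases before the annotated start in RefSeq on GRCm38.p6, read 5′ to 3′ on the strand of the gene: chr4:140810649-140810898 (minus strand) for *Padi3*, chr4:140845779-140846028 (minus) for *Padi1*, chr2:130012090-130012339 (plus) for *Tgm3* and chr2:121085842-121086091 (minus) for *Tgm5*. Capitals mark matches to one of 5 short motifs on either strand.
Padi3: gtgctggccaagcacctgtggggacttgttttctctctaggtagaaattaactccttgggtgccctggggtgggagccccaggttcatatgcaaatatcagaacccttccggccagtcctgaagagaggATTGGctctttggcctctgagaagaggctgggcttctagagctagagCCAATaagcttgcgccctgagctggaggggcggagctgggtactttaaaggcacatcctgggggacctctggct
Padi1: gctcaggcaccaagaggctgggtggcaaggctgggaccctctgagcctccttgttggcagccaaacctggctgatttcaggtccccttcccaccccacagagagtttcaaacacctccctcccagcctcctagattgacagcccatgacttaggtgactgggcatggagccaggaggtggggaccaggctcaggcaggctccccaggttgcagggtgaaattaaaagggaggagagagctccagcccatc
Tgm3: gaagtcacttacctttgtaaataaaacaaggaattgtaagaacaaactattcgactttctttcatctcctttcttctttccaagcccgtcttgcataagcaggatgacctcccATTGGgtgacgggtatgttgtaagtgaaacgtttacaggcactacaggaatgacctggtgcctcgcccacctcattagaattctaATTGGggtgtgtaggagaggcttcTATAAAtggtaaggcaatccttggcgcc
Tgm5: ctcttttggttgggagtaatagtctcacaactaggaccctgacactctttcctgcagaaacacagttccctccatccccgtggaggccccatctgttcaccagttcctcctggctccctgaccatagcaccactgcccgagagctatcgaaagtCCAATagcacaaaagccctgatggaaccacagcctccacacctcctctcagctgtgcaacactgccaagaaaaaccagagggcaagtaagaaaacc
A TATA box was searched as TATAAA, which 12.4% of 32851 promoter windows of the same length held on either strand. An AP-1 site was searched as TGANTCA (6.75% of windows). A GATA site was searched as AGATAA (9.99%). A LEF/TCF site was searched as CTTTGA (13.8%). A CCAAT box was searched by the letters of its name (33.8%). No match overlapped another in the 4 windows. *Padi3* held the CCAAT letters once on each strand, *Tgm3* held them at 2 places on the opposite strand, beside the TATA letters on its own, and *Tgm5* held CCAAT, whereas the *Padi1* window held none of the 5. *Padi4*, not printed, held the AP-1 and the TATA letters. No motif of the 5 occurred in all 3 windows of *Padi3*, *Padi1* and *Tgm3*, and a match is a description of letters and not of a bound site. RefSeq windows were found for 7 of the 8 genes, all but *Tgm2*.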

How the data were processed

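The authors deposited raw UMI counts per gene and spot for 4 slices of skin, made with Space Ranger 2.0.1, on the genome build mm10 per the labels, for spots over tissue alone and without normalization. Spots with at least 250 genes were used, and doublets were not called, as spots mix cells by design. Here, the log-normalized level of each marker gene with at least 100 UMIs was z-scored over the spots of a slice. A spot joined the list with its highest mean z where that was at least 1. *Krt74*, *Krt85* and *Ctsv* of the lists have no row in the count tables, and *Dgat2l6* and *Krt6b* had too few UMIs.

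UMIs were summed per slice and compartment, and the 64 sums of the 16 compartments were fitted together in edgeR 4.0.16 under R 4.3.3 (TMM, filterByExpr, quasi-likelihood, no block). Adjusted p-values are Benjamini-Hochberg over all genes tested, and 95% intervals are normal approximations from the SE. DESeq2 1.42.0 was an alternative, and clusters came from Seurat 5.3.0. The fit was also tested on simulated data, in which each gene had the same mean in every compartment, taken over the 64 sums. Of 10178 genes, 200 were then given a log2 fold change of 1 in epidermis, and 9380 passed the filter. No other differences between compartments were simulated, unlike in the data, where many genes differed. In epidermis against IRS the fit called 90% of the changed genes, with 6.25% false among its calls, for that simpler setting alone. Sums of one slice come from the same sections and so from the same mice, and the slice numbers therefore pair them. The deviations of such sums from the compartment means correlated between 0.02 and 0.32 across genes.

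The 8 genes, the lists and the tests were chosen with earlier results of these data known. Genes were named by the largest log2 fold changes of each list past both thresholds and by likeness of profile. *Tchh*, *S100a3*, *Sprr1a*, *Sprr1b*, *Sprr2h*, *Ivl*, *Rptn* and *Tgm6* were named after their values were seen. Sequences are those of RefSeq, and protein sequences were not used here.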

Additional observations from a re-analysis of the deposited data

Results flagged for a closer look

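Among 128 sets of 4 slices (8 genes in 16 compartments), 9 held a slice that stood far from the other 3, where chance gives about 1 in 20. *Tgm3* was at 89.3 CPM in the epidermis of slice 1 against 45.5 to 48.9 CPM in the others, and at 296 CPM in the late shaft of slice 1 against 231 to 236 CPM. Slice 1 was the deepest slice, and whether depth bears on these values was not tested. Without slice 1, *Tgm3* in epidermis was still lower than in the IRS in edgeR, by a log2 fold change of -2.04. *Tgm2* was at 12.2 CPM in immune spots of slice 4, below the other slices. *Tgm5* was at 3.08 CPM in melanocyte spots of slice 3, and *Padi4* at 3.21 CPM in adipocyte spots of slice 3. The remaining 4 were of *Padi2*, at 4.68 CPM in the upper follicle of slice 3, 2.31 CPM in the outer root sheath and companion layer of slice 1, 1.54 CPM in the early shaft of slice 4, and 0 in immune spots of slice 4, where 0 counts allow up to 6.09 CPM. Each of these *Padi2* values rests on few UMIs.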

How the results depend on the processing

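Results were recomputed with score cuts of 0.5 and 1.5, a margin of 0.25 between lists, clusters, library size alone, DESeq2, no low-count filter, the slice as replicate block, thinned spots and each slice left out. The restriction to spots at least 3 steps from IRS and shaft was chosen after seeing the data. Of 555 values, 488 kept their direction and side of the threshold and 16 reversed.

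The number of called genes moved by over 1.5 times in 3 cases. Thinned spots gave 4 genes for epidermis against IRS (5 tested) and 3 for epidermis against skeletal muscle (5 tested), where fewer genes passed the filter. Clusters gave 6 for IRS against late shaft. Clusters gave no early shaft, so that comparison was not run with them. With a slice left out, the number was 1 for epidermis against upper follicle, 6 to 7 against IRS, 5 against late shaft, 4 to 6 against skeletal muscle, 2 to 3 for IRS against early shaft and 2 for IRS against late shaft.

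Reversed values were as follows. Library size alone gave *Tgm1* 0.022 for epidermis against late shaft and, for IRS against late shaft, *Tgm5* 0.066 and *Padi4* 0.15. The median of all genes was then 0.29 and 0.19. Clusters gave *Tgm3* 0.74 and *Padi4* 0.63 for IRS against late shaft and *Padi4* -0.35 for epidermis against skeletal muscle. *Padi4* for IRS against early shaft was -0.0084 and -0.50 at cuts of 0.5 and 1.5. With a slice left out it ranged from -0.064 to 0.31 (below 0 without slices 1 or 2, at -0.064 and -0.030). Thinned spots gave *Tgm2* 0.15 for IRS against late shaft. With a slice left out, IRS against late shaft gave *Tgm5* from -0.33 to 0.22 and *Padi4* from -0.22 to 0.13, both highest without slice 1. Epidermis against upper follicle gave *Tgm3* from -0.054 (without slice 1) to 0.37. Epidermis against skeletal muscle gave *Padi4* from -0.11 (without slice 4) to 0.47, and -0.049 without slice 2. Most of these are genes that did not pass the test in the main setting, the exceptions being *Tgm1* and *Tgm3*. The causes were not tested.

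With the slice as a replicate block, epidermis against upper follicle kept 1 called gene, IRS 7, late shaft 6, and skeletal muscle gave 6. IRS against early shaft gave 3, and IRS against late shaft 4. The gains were *Padi1*, *Tgm1* and *Padi3*, in that order of comparison. The shares of all genes called with the block are not given, so these counts, too, describe stability alone. The compartment in which a gene was highest was kept by 8 of 8 genes at a cut of 0.5, by 7 at a cut of 1.5 (*Tgm2* moved to endothelium), with the margin (*Padi4* to IRS) and with any 1 slice left out, and by 6 with clusters or thinned spots. *Tgm3* moved to the early shaft without slice 1 or 2 and with thinned spots, and to the IRS with clusters. *Padi4* moved to the IRS without slice 3 or 4, with clusters and with thinned spots. No cluster was named early shaft or endothelium. With clusters, *Padi4* therefore could not stay in the early shaft and *Tgm2* could not move to endothelium. Depth limited *Padi2*, *Padi4* and *Tgm5* most, with 163, 920 and 541 UMIs.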
